A study of Mus musculus with 8 samples.

Results

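These results cover 9 genes of transforming growth factor beta (TGF-beta) signalling, taken by mouse symbol from the 55401 genes of the count table. They are the ligand genes Tgfb1 and Gdf3, the matrix protein gene Thbs1, the receptor genes Tgfbr1 and Tgfbr2, the signal transducer gene Smad3, its inhibitors Smad7 and Skil, and the target gene Tgfbi. All 9 symbols matched 1 row each, and all 9 passed the filter on low counts. They were measured in bone marrow-derived macrophages, which are grown from mouse bone marrow. Both Mettl3 alleles of every mouse were floxed (Mettl3fl/fl), and METTL3 is the enzyme that writes N6-methyladenosine on mRNA. Cells called KO also carried Lyz2-Cre, a recombinase driven by a promoter active in myeloid cells, and cells called WT did not carry it. Cells of each genotype received PBS, or LPS at 50 ng/ml overnight followed by nigericin at 10 µM. The sample labels give 3 h of nigericin, while the text on the series gives 1 h or 3 h. LPS is a bacterial ligand of TLR4, and nigericin lets potassium out of cells and so triggers the NLRP3 inflammasome. The 4 groups had 2 libraries each, which makes 8. No group received LPS alone or nigericin alone, so their parts cannot be told apart, and Mettl3 deletion and Cre cannot be told apart either.

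TGF-beta ligands are secreted in a latent complex that is held in the matrix or on cell surfaces, and proteases, integrins or thrombospondin-1 release them. The active ligand binds the type II receptor TGFBR2, which recruits and activates the type I receptor TGFBR1, which in turn phosphorylates SMAD2 and SMAD3. These enter the nucleus with SMAD4, while SMAD7 blocks the receptor and SKIL represses SMAD target genes. Macrophages both make TGF-beta and respond to it, and TGF-beta is known to restrain their inflammatory activation.

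The libraries held 55032057 to 65487739 counts. Levels are given as CPM, counts scaled to library size with a composition factor (TMM), and, where genes are compared with each other, as RPKM, which also divides by exon length. Changes are log2 values ± SE from a single edgeR fit of all 8 libraries over 17470 tested genes, with n = 2 per group throughout. A gene is called, and said to rise, fall, be higher or be lower, where its adjusted p was under 0.05 in that fit. The 9 genes were selected on their changes between the groups of these same libraries, together with their known role in the pathway, so their changes and calls describe the libraries and no p-value is given for them. The labels do not say whether libraries with the same label are separate mice, cultures or preparations, so a test here measures library-to-library spread alone, possibly of technical origin. Mettl3 itself, which checks the labels, stood in KO libraries at 5.63 and 6.33 CPM against 13.6 and 13.3 CPM in WT with PBS, and at 9.08 and 7.87 against 28.2 and 23.4 after stimulation, so that KO lay below WT without overlap. All 8 macrophage markers checked were present in every group, but they summed to 26700 to 28100 CPM in KO libraries against 42200 to 48300 in WT libraries. Most of that sum is Lyz2, the gene whose promoter drives Cre, at a mean of 17100 against 34100 CPM with PBS and 15100 against 33300 after stimulation. Of the 8 markers, 2 were lower in KO with PBS (Lyz2 and Cd14) and 2 after stimulation (Lyz2 and Adgre1), and 0 were higher. Their median log2 difference between KO and WT was 0.02 with PBS and -0.26 after stimulation, with 4 and 3 of the 8 above 0. In bulk RNA, fewer cells of a type and less RNA per cell cannot be told apart.

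Stimulated macrophages carried far more mRNA of Tgfbi and far less of Thbs1. Both receptor genes fell less than Thbs1, each by similar amounts in WT and KO. In WT, 2 of the 9 genes rose and 4 fell, where 40.5% of all tested genes were called, 20.6% rising and 20.0% falling. With library size alone, without the composition factor, 1 rose and 6 fell, where 2713 of all 17470 tested genes rose and 4720 fell. In KO, 1 rose and 6 fell, where 39.1% were called, 20.2% rising and 19.0% falling. With PBS, 1 of the 9 genes was higher in KO and 0 were lower, where 1.55% of all tested genes were called, 1.20% higher and 0.355% lower. After stimulation 3 were higher in KO and 1 was lower, where 4.92% were called, 2.91% higher and 2.01% lower. In the difference between the responses of KO and WT, 0 were called higher and 1 was called lower, where 0.498% were called, 0.103% higher and 0.395% lower. At an unadjusted p under 0.05, 1 had a positive and 1 a negative value in that difference, where 10.7% of all tested genes passed, and DESeq2 called 1 higher and 1 lower, where it called 192 and 294 of all 17470. The libraries of the 2 groups did not overlap for 8 of the 9 genes on stimulation of WT, 2 higher and 6 lower, where 71.2% of all tested genes did not overlap, 34.6% higher and 36.6% lower. In KO 8 did not overlap, 1 higher and 7 lower, where 72.8% did not, 35.6% higher and 37.2% lower. Between the genotypes 5 did not overlap with PBS, 4 higher and 1 lower in KO, where 48.6% did not, 24.6% higher and 24.0% lower. After stimulation 8 did not overlap, 4 higher and 4 lower, where 50.2% did not, 25.0% higher and 25.1% lower. Nothing is read from these shares, since the choice of the 9 genes used the same libraries.

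**Figure D1:**
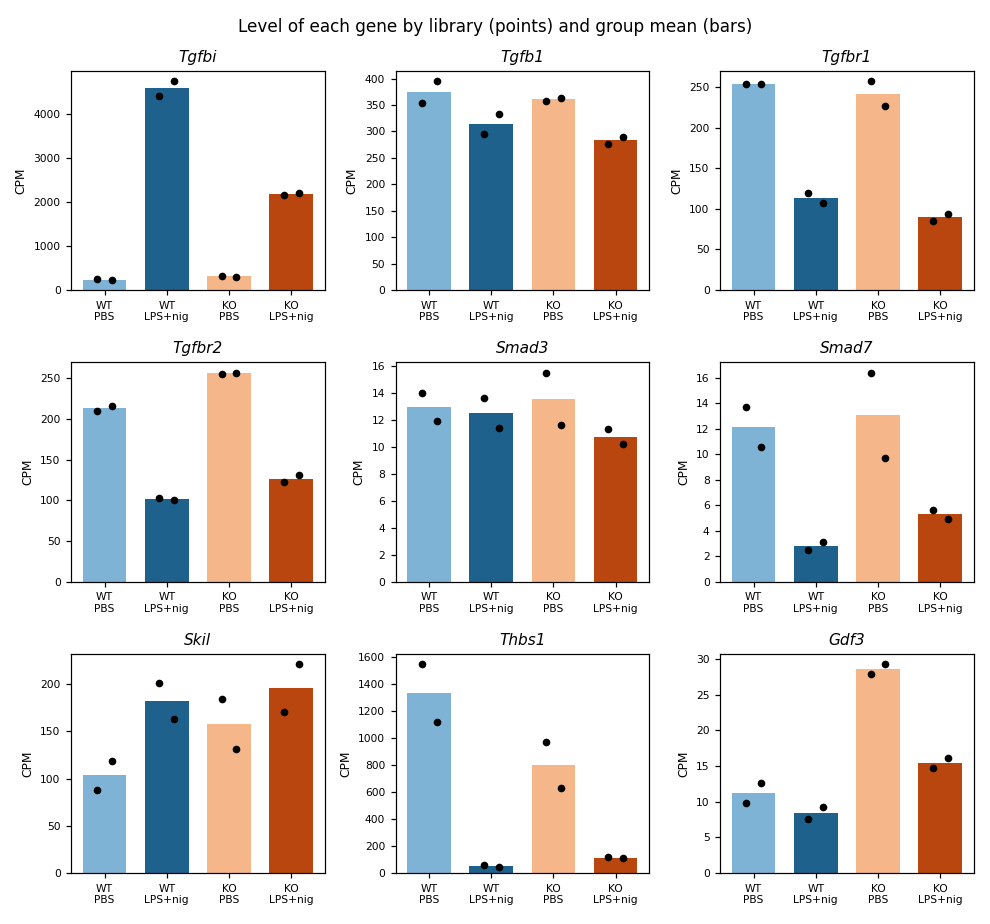
CPM (linear axis from 0) of the 9 genes in WT and KO macrophages with PBS or with LPS and nigericin (LPS+nig). Points are single libraries and bars are means of 2; Tgfbi stands at 4420 and 4750 in stimulated WT against 2170 and 2200 in stimulated KO, and Thbs1 is high in the PBS libraries of both genotypes.

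Among the ligands, Tgfb1 (ENSMUSG00000002603, chromosome 7, 25687002 to 25705077, plus strand, GRCm38) encodes the founding TGF-beta and changed little. Its level was 353 and 395 CPM in WT with PBS and 295 and 333 in stimulated WT. It was 358 and 363 CPM in KO with PBS and 277 and 289 in stimulated KO. Stimulated libraries lay below PBS libraries in both genotypes, and the KO and WT libraries overlapped with PBS. The log2 change on stimulation was -0.25 ± 0.09 in WT, which was not called, and -0.35 ± 0.09 in KO, which was. The KO call was lost without any 1 of the KO libraries. The WT change became a call with DESeq2's size factors, with library size alone, with DESeq2, with limma-voom, with the stricter filter, with the replicate number as a block, and without WT PBS library 1 or stimulated WT library 2. The log2 differences between KO and WT were -0.06 ± 0.09 with PBS and -0.15 ± 0.09 after stimulation, and neither was called.

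Gdf3 (ENSMUSG00000030117, chromosome 6, 122605403 to 122610087, minus strand), a more distant ligand of the family, was the gene of the 9 that was called higher in KO with either treatment. Its level was 27.9 and 29.3 CPM in KO with PBS against 9.84 and 12.7 in WT, and 14.7 and 16.2 in stimulated KO against 7.55 and 9.31 in stimulated WT. The KO libraries lay above the WT libraries of the same treatment without overlap. Even the stimulated KO libraries lay above the WT libraries with PBS. KO exceeded WT by a log2 difference of 1.35 ± 0.16 with PBS and 0.87 ± 0.16 after stimulation. On stimulation Gdf3 fell by 0.89 ± 0.16 in KO, while the change in WT was -0.42 ± 0.16 and not called. The WT change was called with library size alone, with the stricter filter, with the replicate number as a block and without WT PBS library 1. The difference between these responses, -0.47 ± 0.23, was not called. With PBS the call ended in a fit of only the groups compared, and when WT PBS library 1 or 1 of the KO PBS libraries was left out. The call after stimulation was lost in that fit and without any 1 of 6 libraries, the exceptions being the 2 WT PBS libraries.

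Thbs1 (ENSMUSG00000040152, chromosome 2, 118111876 to 118127133, plus strand) encodes thrombospondin-1, a secreted glycoprotein that can free TGF-beta from its latent complex. Its level was 1550 and 1120 CPM in WT with PBS and 975 and 630 in KO with PBS. After stimulation it was 56.1 and 43.4 CPM in WT and 118 and 108 in KO. The KO libraries thus lay below the WT libraries with PBS and above them after stimulation, with no overlap in either case. Thbs1 fell by 4.75 ± 0.28 in WT, a 26.9-fold change, and by 2.82 ± 0.26 in KO, a 7.08-fold change. The difference between the responses was 1.92 ± 0.34 and was not called, but it was called with DESeq2 and with the replicate number as a block. Between the genotypes the log2 difference was -0.74 ± 0.24 with PBS, which was not called, and 1.19 ± 0.25 after stimulation, which was. The latter call was lost with limma-voom and without any 1 of 6 libraries, the exceptions being the 2 KO PBS libraries. The antisense gene Gm29233 overlaps 3.42% of the exon bases of Thbs1 and held 0 to 37 counts per library, at most 0.158% of the count of Thbs1.

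The receptor genes fell together. Tgfbr1 (ENSMUSG00000007613, chromosome 4, 47353222 to 47414931, plus strand) was at 254 and 254 CPM in WT with PBS and at 120 and 107 after stimulation. In KO it was at 257 and 226 CPM with PBS and at 85.5 and 93.5 after stimulation. The stimulated libraries were all below the PBS libraries, and the genotypes overlapped with PBS but not after stimulation, where the KO libraries lay below. Tgfbr1 fell by 1.16 ± 0.10 in WT and by 1.43 ± 0.10 in KO, and the difference of -0.27 ± 0.13 was not called. Tgfbr2 (ENSMUSG00000032440, chromosome 9, 116084293 to 116175360, minus strand) was at 210 and 216 CPM in WT with PBS and at 103 and 100 after stimulation. In KO it was at 256 and 257 CPM with PBS and at 122 and 131 after stimulation, above WT in each case. It fell by 1.07 ± 0.06 in WT and by 1.01 ± 0.06 in KO. The calls of both genes on stimulation were kept in every alternative run in both genotypes.

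The KO and WT libraries differed in the balance of the receptor genes. For Tgfbr2, KO minus WT on the log2 scale was 0.27 ± 0.06 with PBS, which was not called, and 0.32 ± 0.06 after stimulation, which was. That call was lost in all 8 fits that left out a library, with no filter, in a fit of only the groups compared and with the replicate number as a block. For Tgfbr1 the same differences were -0.07 ± 0.09 and -0.34 ± 0.10, and neither was called. On the RPKM scale the ratio of Tgfbr1 to Tgfbr2 was 1.52 and 1.48 in WT with PBS and 1.47 and 1.33 in stimulated WT. It was 1.26 and 1.10 in KO with PBS and 0.877 and 0.891 in stimulated KO. Every KO library lay below every WT library, a description with no test of its own.

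The promoter sequences of both receptors are shown because these genes moved together. The sequences come from RefSeq's table for GRCm38.p6, of which the part used here covers 5 of the 9 genes. Each is printed 5′ to 3′ upstream of the annotated start, and capitals mark matches on either strand to any of 4 motifs. These are the SMAD half-site CAGAC, the AP-1 site TGANTCA, the STAT site TTCNNNGAA and the core of the interferon response element. The motifs were picked with the values known, they share no bases in the sequences shown, and a match describes the letters alone.
Tgfbr1, chr4:47352972-47353221, plus strand: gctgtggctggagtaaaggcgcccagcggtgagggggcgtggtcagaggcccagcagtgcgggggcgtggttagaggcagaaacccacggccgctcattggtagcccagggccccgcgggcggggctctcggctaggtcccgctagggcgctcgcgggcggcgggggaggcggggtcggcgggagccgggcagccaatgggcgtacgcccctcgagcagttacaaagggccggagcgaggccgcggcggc
Tgfbr2, chr9:116175364-116175613, minus strand: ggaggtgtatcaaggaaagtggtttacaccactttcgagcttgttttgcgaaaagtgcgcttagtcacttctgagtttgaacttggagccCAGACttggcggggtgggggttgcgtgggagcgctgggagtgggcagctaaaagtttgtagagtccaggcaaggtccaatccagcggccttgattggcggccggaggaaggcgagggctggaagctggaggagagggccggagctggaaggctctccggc
The stretch shown for Tgfbr1 held 0 matches to the 4 motifs, while the window at its other annotated start, not shown, held 1 to the SMAD half-site, and that for Tgfbr2 held 1, to the SMAD half-site. Among the 32851 promoter windows of 300 bases in the part of the table used, 49.6% held the SMAD half-site and 7.81% the AP-1 site. The STAT site was in 8.30% and the interferon response element core in 3.44%.

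Of the SMAD genes, Smad3 (ENSMUSG00000032402, chromosome 9, 63646767 to 63757994, minus strand), the transducer that carries the signal to the nucleus, was low and was not called in any of the 5 comparisons. Its level was 14.0 and 11.9 CPM in WT with PBS, 13.6 and 11.4 in stimulated WT, 15.5 and 11.6 in KO with PBS and 11.3 and 10.2 in stimulated KO. The groups overlapped in WT, while both stimulated KO libraries lay below the KO libraries with PBS. The log2 change on stimulation was -0.05 ± 0.18 in WT, whose sign turned without WT PBS library 1 or stimulated WT library 2, and -0.34 ± 0.18 in KO.

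Smad7 (ENSMUSG00000025880) encodes the inhibitory SMAD, which TGF-beta itself induces and which closes a feedback loop. Its level was 13.7 and 10.6 CPM in WT with PBS and 2.44 and 3.11 after stimulation. In KO it was 16.4 and 9.72 CPM with PBS and 5.65 and 4.93 after stimulation. Stimulated libraries lay below PBS libraries in both genotypes, and the stimulated KO libraries lay above the stimulated WT libraries. Smad7 fell by 2.13 ± 0.29 in WT and by 1.31 ± 0.28 in KO, the latter call being lost without stimulated KO library 2. The difference between KO and WT after stimulation was 0.93 ± 0.28 and the difference between the responses was 0.83 ± 0.39, and neither was called. With DESeq2 the former was called.

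Skil (ENSMUSG00000027660, chromosome 3, 31095058 to 31122577, plus strand) encodes SnoN, a repressor that binds SMAD complexes and is itself a TGF-beta target. Its level was 88.0 and 119 CPM in WT with PBS and 201 and 163 in stimulated WT. In KO it was 184 and 131 CPM with PBS and 170 and 221 after stimulation, so that the KO groups overlapped. Skil rose by 0.81 ± 0.23 in WT, and the change in KO was 0.31 ± 0.23 and not called. The WT call was lost with library size alone and without WT PBS library 1 or stimulated WT library 1. The difference between the responses, -0.50 ± 0.32, was not called. Smad7 and Skil, both counted among inhibitors of the pathway, thus moved in opposite directions in WT.

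Tgfbi (ENSMUSG00000035493, chromosome 13, 56609523 to 56639562, plus strand) is named for its induction by TGF-beta and encodes a secreted matrix protein that binds collagens and integrins. Its level was 245 and 223 CPM in WT with PBS and 4420 and 4750 in stimulated WT. In KO it was 326 and 297 CPM with PBS and 2170 and 2200 in stimulated KO. The stimulated libraries were all far above the PBS libraries. KO libraries lay above WT libraries with PBS and below them after stimulation, without overlap. Tgfbi rose by 4.29 ± 0.09 in WT, a 19.6-fold change, and by 2.81 ± 0.08 in KO, a 7.02-fold change. The difference between KO and WT was 0.41 ± 0.08 with PBS, which was not called, and -1.07 ± 0.08 after stimulation, which was. The PBS difference was called with library size alone, with DESeq2 and with the stricter filter. The response in KO was smaller than that in WT by -1.48 ± 0.11, the single call among the 9 genes in the difference of responses. The stimulation calls, the call after stimulation and that in the difference were kept in every alternative run, including all 8 fits that left out a library.

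The promoter of Tgfbi is shown because this gene rose most among the 9, with capitals as above.
Tgfbi, chr13:56609336-56609522, plus strand: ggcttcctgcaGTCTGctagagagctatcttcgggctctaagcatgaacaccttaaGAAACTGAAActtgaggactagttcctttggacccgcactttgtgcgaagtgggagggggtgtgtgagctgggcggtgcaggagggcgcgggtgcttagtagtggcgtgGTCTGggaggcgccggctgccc
This stretch held 2 matches to the SMAD half-site, 1 to the interferon response element core and 0 to the other 2 motifs.

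**Figure D2:**
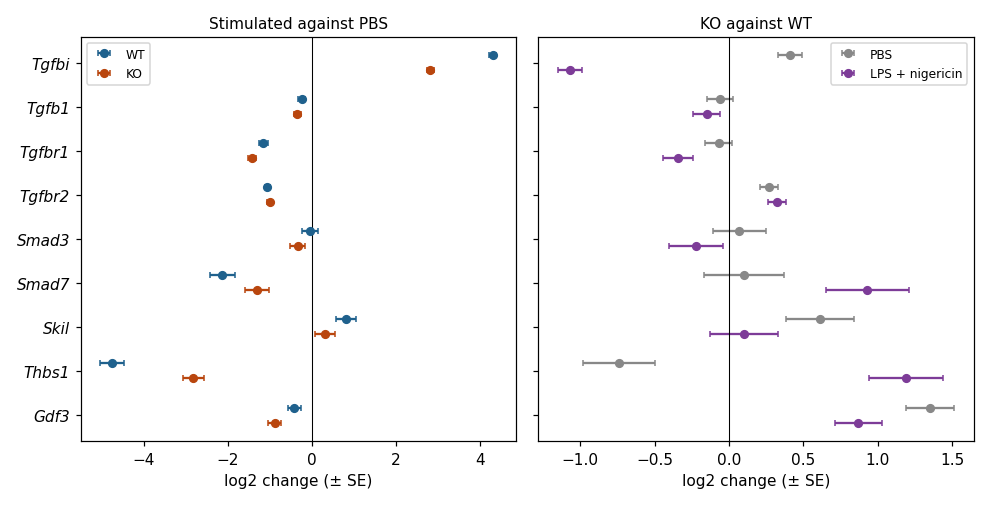
Log2 changes with their SE (bars) for stimulated against PBS libraries in WT and KO (left) and for KO against WT with PBS and after stimulation (right). Tgfbi rose by 4.29 in WT and 2.81 in KO, Thbs1 fell in both, and these 2 genes take opposite signs in KO against WT with PBS and after stimulation.

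Per exon length, Thbs1 was the most abundant of the 9 mRNAs with PBS and Tgfbi after stimulation. In WT with PBS the order of mean RPKM was Thbs1 (220), Tgfb1 (74.3), Tgfbi (62.0), Tgfbr1 (38.9), Tgfbr2 (26.0), Skil (10.7), Gdf3 (4.65), Smad7 (2.69) and Smad3 (2.33). Of the neighbours in this order only Smad7 and Smad3 had libraries that overlapped. In stimulated WT, Tgfbi led at 1220 RPKM, above 99.7% of all tested genes, while Thbs1 stood sixth at 8.19, and Skil and Tgfbr1 overlapped. In KO with PBS, Tgfbi at 82.5 RPKM stood above Tgfb1 at 71.5, the reverse of WT, and Smad7 and Smad3 overlapped. In stimulated KO, Tgfbi was at 579 RPKM, Skil at 20.1 overlapped Thbs1 at 18.7, and Tgfbr2 at 15.5 stood above Tgfbr1 at 13.7. Smad7 and Smad3 were the lowest in every group, at 0.614 to 2.89 RPKM.

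**Figure D3:**
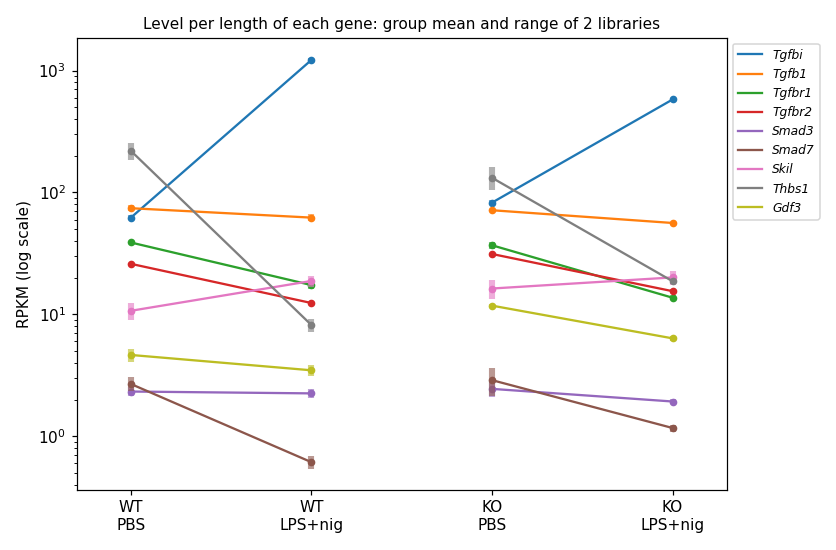
Mean RPKM (log axis) of the 9 genes in the 4 groups, with thick bars for the range of the 2 libraries and lines joining PBS and stimulated groups of a genotype. The lines of Tgfbi and Thbs1 cross, with Thbs1 at 220 and Tgfbi at 62.0 RPKM in WT with PBS and 8.19 against 1220 after stimulation.

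Genes with the most similar pattern were taken by the smallest root mean square difference in log2 CPM over the 8 libraries, centred per gene, among 8279 genes of at least 10 CPM on average. For Tgfbi these included Tma16 (0.237 log2 units), Asns (0.260), Oas1g (0.330) and Nfkbia (0.348). Tma16 was at 211 and 216 CPM in stimulated WT against 142 and 104 in stimulated KO, and Asns, which makes asparagine, at 80.2 and 87.0 against 27.9 and 30.7. These groups lay closer for Oas1g, at 276 and 293 CPM against 254 and 251, and for Nfkbia, at 798 and 796 against 752 and 679. For Thbs1 they were Enc1 (0.312), Epas1 (0.338) and Pde3b (0.413), and for Gdf3 H2-Aa (0.153), Cd74 (0.224) and Col6a1 (0.259). The MHC class II chain gene H2-Aa was at 744 and 865 CPM in KO with PBS against 295 and 335 in WT. The points of such a comparison share libraries, and a small distance describes these 8 libraries alone.

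The motif GGACT, a form of the sequence that the METTL3 complex prefers, was counted in the longest coding transcript of each gene in GENCODE M21. Tgfb1 held 5 in 2175 bases (2.30 per kb) and Thbs1 13 in 5848 (2.22 per kb), above 93.2% and 92.0% of 13276 tested coding genes. Tgfbi held 3 in 2714 bases (1.11 per kb), close to the median of 1.05. The lowest were Smad3 at 0.393 per kb and Tgfbr1 at 0.521 per kb. These are counts of letters, with no measurement of methylation.

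A wider list of 88 genes of the TGF-beta superfamily, without the 9, was tested in the same fit. The list was set by role in the pathway, but with earlier results of these data known. Its shares and p-values are read with that limit. Of these, 78 passed the filter on low counts. Of the remaining 10, Bmp4, Bmp7, Gdf10, Mstn, Itgb6, Nog and Chrd had 0 counts in all 8 libraries, and Inha, Nodal and Acvr1c had at most 8, 19 and 8 counts in a library. On stimulation of WT, 16 rose and 36 fell (66.7% called), where 40.5% of all tested genes were called, 20.6% rising and 20.0% falling. The same all-gene shares stand against the counts by role below. The median log2 change of the wider list was -0.46 against -0.01 over all tested genes. With library size alone 10 rose and 41 fell, while 2713 of all tested genes rose and 4720 fell and their median moved to -0.197. Without WT PBS library 1 fewer genes fell, in the list and over all tested genes.

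By role, the genes that hold or release latent TGF-beta split, with 3 of 11 up and 6 down in WT. In edgeR's test Mmp14, a membrane protease, rose by 3.64 ± 0.09 (adjusted p = 7.63e-07), from 62.5 and 58.3 to 777 and 729 CPM. Itgb8, an integrin chain that activates latent TGF-beta, rose by 3.34 ± 0.32 (adjusted p = 0.000218) from a mean of 0.394 to 4.01 CPM. Bmp1, a protease of matrix proteins, rose by 1.89 ± 0.18 (adjusted p = 0.000238). The genes that fell in this role were Ltbp1, Ltbp2 and Ltbp3, which encode proteins that tether latent TGF-beta to the matrix, Lrrc32 and Nrros, which encode its anchors on cell surfaces, and Furin, whose product cuts the TGF-beta precursor. These 6 are named by their calls, and that of Ltbp1 was kept in 2 of 8 fits that left out a library. The call of Nrros was lost without WT PBS library 2 or stimulated WT library 1.

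Of 9 other ligands 1 rose and 4 fell in WT. Inhba, the activin A subunit gene, rose by 2.18 ± 0.28 (edgeR adjusted p = 0.000959), while Tgfb3 fell by 3.05 ± 0.49 (adjusted p = 0.00252) and Bmp2 by 3.98 ± 0.91 (adjusted p = 0.0117). Bmp2 rested on few reads, at 1.52 and 2.14 CPM with PBS and 0 and 13 counts in the stimulated WT libraries, and its log2 change ran from -9.81 to -3.02 over the alternatives. Of 17 targets 5 rose and 10 fell. Timp1, an inhibitor of metalloproteinases, rose by 3.09 ± 0.12 (edgeR adjusted p = 4.60e-06) and the cell cycle inhibitor gene Cdkn2b by 1.67 ± 0.53 (adjusted p = 0.0422), at a mean of only 1.29 CPM. The Cdkn2b call was kept in 2 of 8 fits that left out a library. Id3 and Id1, inhibitors of helix-loop-helix factors that respond foremost to BMP signals, fell by 2.22 ± 0.11 (edgeR adjusted p = 1.06e-05) and 1.87 ± 0.33 (adjusted p = 0.00397), and Tsc22d1 by 1.87 ± 0.16 (adjusted p = 0.000142). Of 10 other receptors 3 rose and 4 fell, with Acvr2b, an activin receptor, at -1.86 ± 0.50 (edgeR adjusted p = 0.0226), a call lost without WT PBS library 1 or either stimulated WT library, with values from -2.31 to -1.21 over the alternatives. The 6 other SMADs had 1 up and 3 down, the 19 regulators 3 and 7, and the 6 extracellular inhibitors 0 and 2.

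In KO, 16 of the 78 rose and 23 fell (50% called), where 39.1% of all tested genes were called, 20.2% rising and 19.0% falling. The median log2 change of the 78 was -0.23 against -0.03 over all tested genes. The roles had, as risen and fallen, 1 and 3 of the ligands, 3 and 5 of the storage and activation genes, 1 and 0 of the extracellular inhibitors, 2 and 2 of the receptors, 2 and 0 of the SMADs, 3 and 5 of the regulators and 4 and 8 of the targets. Itgb8 rose by 3.38 ± 0.30 (edgeR adjusted p = 0.000163), Mmp14 by 3.24 ± 0.09 (adjusted p = 1.14e-06), Timp1 by 2.51 ± 0.12 (adjusted p = 9.19e-06) and Bmp1 by 2.17 ± 0.18 (adjusted p = 0.00012). Gadd45b, a stress gene that TGF-beta induces, rose by 1.69 ± 0.16 (edgeR adjusted p = 2e-04) and Inhba by 1.66 ± 0.28 (adjusted p = 0.00314). Among fallen genes with a mean of 1 CPM or more with PBS, the largest changes were those of Bmp2 (-2.85 ± 0.80, edgeR adjusted p = 0.0274), Tgfb3 (-2.63 ± 0.47, 0.00433), Id3 (-2.43 ± 0.11, 7.74e-06), Id1 (-2.34 ± 0.33, 0.00153), Inhbb (-2.17 ± 0.27, 0.000782) and Tsc22d1 (-1.62 ± 0.16, 0.000269). The Bmp2 call was lost without any 1 of the KO libraries, and the change of Tgfb3 ran from -3.05 to -2.05 over the alternatives.

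Many of these calls were made in both genotypes, whose responses have no library in common. The genes that rose in both numbered 13, 81.2% of the 16 in WT and 81.2% of the 16 in KO. Those that fell in both numbered 22, 61.1% of the 36 in WT and 95.7% of the 23 in KO. Over all tested genes, the risen genes in both were 80.7% of those in WT and 82.2% of those in KO, and the fallen genes 75.4% and 79.4%. Only Col1a1, a collagen gene singled out here after its values were seen, was called in opposite directions. It was at 56.2 and 63.5 CPM in WT with PBS, 45.7 and 44.4 in stimulated WT, 81.0 and 88.0 in KO with PBS and 119 and 108 in stimulated KO. The WT call was lost without WT PBS library 2 or stimulated WT library 2, and the KO call without KO PBS library 1 or stimulated KO library 1. The difference of its responses was 0.83 ± 0.13 and not called (edgeR adjusted p = 0.0677). Of the 78 genes, edgeR called 0 in the difference of responses, where 0.498% of all tested genes were called. At an unadjusted p under 0.05, 14 of the 78 passed (11 positive, 3 negative), where 10.7% of all tested genes did. DESeq2 called 8 higher and 1 lower, where it called 192 and 294 of all tested genes. The limma-voom calls were 2 higher and 0 lower, where it called 17 and 67 of all tested genes.

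**Figure D4:**
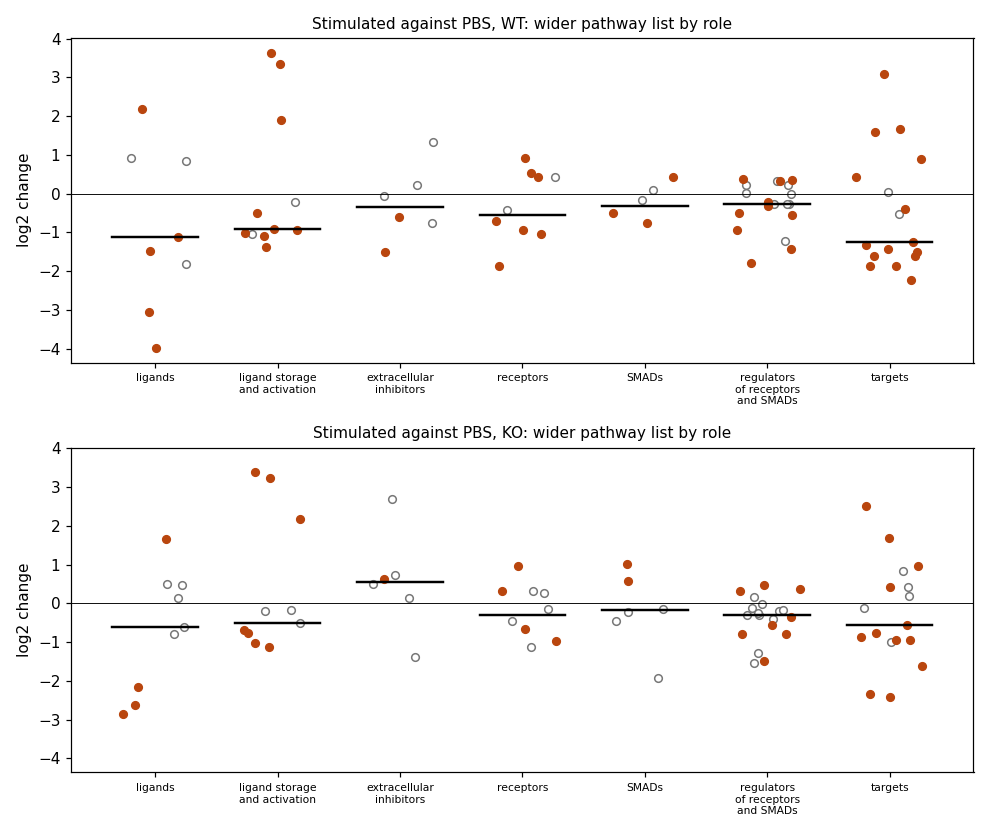
Log2 change on stimulation of the 78 tested genes of the wider list in WT (top) and KO (bottom), by role. Filled points are called, open points are not, black lines are medians, and the 3 genes in WT and 2 in KO with 0 counts in a group are not drawn. Storage and activation genes split into risen and fallen genes, and 10 of 17 targets fell in WT against 8 in KO.

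Between the genotypes with PBS, the median log2 difference of the 78 genes was 0.13 against 0.00 over all tested genes. In KO 2 of the 78 were higher and 0 were lower (2.56% called), where 1.55% of all tested genes were called, 1.20% higher and 0.355% lower. The 2 genes were Mmp14 (0.96 ± 0.08, edgeR adjusted p = 0.00453), at 110 and 126 CPM in KO against 62.5 and 58.3 in WT, and Dcn, the gene of the TGF-beta-binding proteoglycan decorin (0.84 ± 0.10, adjusted p = 0.0132). Both calls were lost in a fit of only the groups compared, and that of Dcn without any 1 of the PBS libraries. DESeq2 called 14 higher, where it called 572 of all 17470 tested genes higher.

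After stimulation, 16 of the 78 genes were higher in KO and 2 were lower, which is 23.1% called against 4.92% of all tested genes. The all-gene shares were 2.91% higher and 2.01% lower. The median log2 difference of the 78 was 0.12 against 0.00 over all tested genes. The 16 higher genes included 6 of 11 storage and activation genes, 3 of 6 extracellular inhibitors and 5 of 17 targets, with 1 other receptor and 1 other SMAD. With library size alone the split was 21 and 0, where 1044 of all tested genes were higher and 236 lower. In the main fit the all-gene counts were 508 and 352. Leaving out 1 of the stimulated KO libraries gave fewer higher genes, in the list and over all tested genes. Of the 16 higher genes, those with the largest difference were Fstl3, an activin inhibitor (1.80 ± 0.30, edgeR adjusted p = 0.0235), Dcn (1.52 ± 0.10, 0.00109) and Ltbp2 (1.48 ± 0.15, 0.00452). Next were Grem1, a BMP inhibitor (1.44 ± 0.15, edgeR adjusted p = 0.00526), Ltbp1 (1.39 ± 0.29, 0.0476) and the co-receptor gene Tgfbr3 (1.38 ± 0.29, 0.048). Dcn was at 37.7 and 33.8 CPM in stimulated KO against 12.1 and 12.8 in stimulated WT. The 2 lower genes were Id3 (-0.53 ± 0.11, edgeR adjusted p = 0.0425) and Klf10, an early TGF-beta target (-0.51 ± 0.10, 0.0359). The calls of Tgfbr3 and Id3 were lost in all 8 fits that left out a library. Those of Ltbp1, Klf10 and Fstl3 were kept in 1, 2 and 4 of them, and those of Dcn, Ltbp2 and Grem1 in all 8.

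Markers of stromal cells moved with these genes. The 12 fibroblast and stromal markers, of which Dcn and Col1a1 are also on the wider list, summed to 417 and 372 CPM in stimulated KO against 151 and 148 in stimulated WT, and to 332 and 353 against 217 and 239 with PBS. Of the 11 tested, 9 were higher in KO after stimulation and 0 were lower, where 2.91% and 2.01% of all tested genes were. Mfap5 had 0 counts in both stimulated groups. On stimulation 1 rose and 6 fell in WT, where 20.6% of all tested genes rose and 20.0% fell. In KO 5 rose and 2 fell, where 20.2% rose and 19.0% fell. Tgfbi was lower in stimulated KO, the group with the highest stromal sum, while Thbs1 and Gdf3 were higher there than in stimulated WT. Platelet and megakaryocyte markers, whose cells store thrombospondin-1 and TGF-beta, summed to 152 and 163 CPM in KO with PBS against 71.5 and 72.2 in WT, the treatment in which both KO libraries of Thbs1 lay below the WT libraries. That sum was led by Vwf, which endothelial cells also make, at a mean of 136 against 45.3 CPM, while 6 of the 7 markers tested were at a lower mean in KO, among them Pf4 at 15.9 against 18.1 CPM, and the median log2 difference was -0.55. In the stimulated groups the list summed to 42.0 to 50.5 CPM. B and plasma cell markers summed to 2.40 to 3.62 CPM in KO libraries and 0.414 to 0.800 in WT libraries. The part of these cells in the levels of the 9 genes was not tested.

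**Figure D5:**
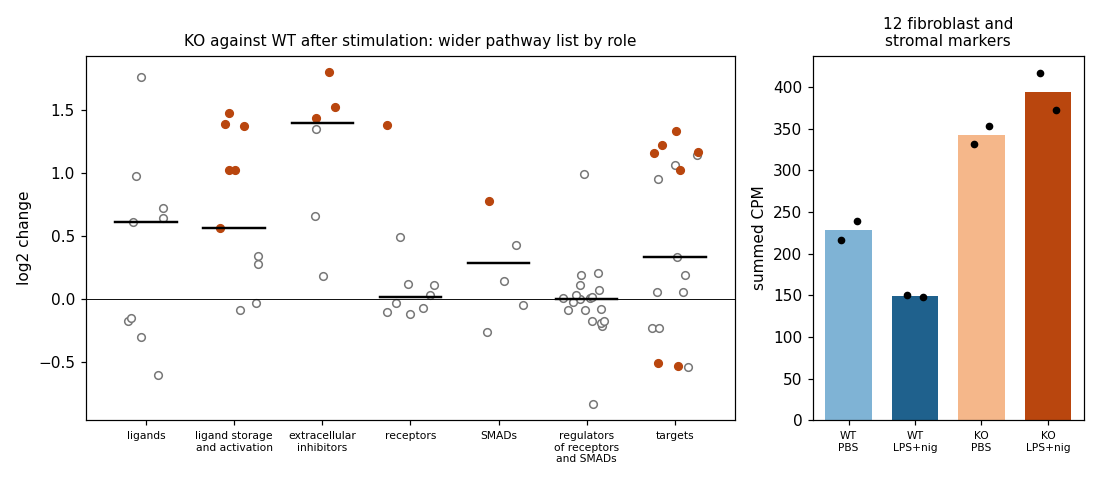
Left, log2 difference between KO and WT after stimulation for the tested genes of the wider list by role, with called genes filled, medians as lines and 3 genes with 0 counts in a group not drawn. Right, summed CPM of 12 fibroblast and stromal markers per library (points) and group mean (bars), where stimulated KO stands at 417 and 372 against 151 and 148 in stimulated WT.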

How the data were processed

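RNA of 8 macrophage libraries was sequenced by the authors, and the deposited table holds raw counts by Ensembl gene. The submitters' processing notes name mm10, Bowtie2, Trimmomatic and edgeR; which counter, gene models and strand setting they used is not given in the sources used here. Symbols, positions and exon lengths came from GENCODE M21 (GRCm38), matching 55141 of 55401 genes. Genes were kept by filterByExpr (minimum count 10, total 15), which left 17470. TMM scaling and edgeR 4.0.16 quasi-likelihood F tests (R 4.3.3) with Benjamini-Hochberg adjustment were applied to 5 contrasts in 1 fit of 4 groups with 4 residual degrees of freedom. SE is the log2 change over the root of F. Counts between libraries of a group differed by 42.19 to 88.52 in chi-square per degree of freedom, so none repeats another. The tests were checked on simulated data.

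The members and lists were chosen with earlier results of these data known. Named genes of the wider list were up to 6 called genes in each direction with the largest change, non-overlapping libraries and 1 CPM or more in the group that was higher; further names illustrate a role or were chosen after their values were seen. Alternatives were DESeq2 size factors, library size alone, DESeq2 1.42.0, limma-voom (limma 3.58.1), only the groups compared, no filter, 5 CPM in 2 libraries, a block for the replicate number, and leaving out each library. Markers of 7 cell types were summed. Some genes that these rules name are not reported here. Figures used matplotlib 3.10.9.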

Additional observations from a re-analysis of the deposited data

Results flagged for a closer look

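The response of Tgfbi differed between the genotypes. Its difference between the log2 changes of KO and WT was -1.48 ± 0.11, called in the fit across all genes. Tgfbi was chosen with this value in view, so it stands as a description.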

How the results depend on the processing

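Of the 9 genes, no called log2 change turned sign under any alternative run, and 670 recomputed changes moved by less than 1 SD between libraries and 41 by more. Uncalled PBS differences of Tgfb1, Tgfbr1, Smad3 and Smad7 turned sign without 1 library. On stimulation of WT, library size alone gave 1 risen member and 10 risen genes of the wider list; leaving out 1 library gave 1 to 2 risen members and 23 to 33 fallen genes of the wider list. For KO against WT with PBS, members called higher were 2 with library size alone, 3 with DESeq2 (1 lower), 2 with the stricter filter and 0 with only the groups compared. Over all tested genes these settings called 273, 572, 253 and 33 higher, against 209 in the main fit. The stricter filter kept 10581 genes, and DESeq2 called 304 lower, against 62. Wider genes called higher there were 4, 14, 4 and 0 in these settings. With limma-voom they were 5, where it called 222 of all tested genes higher. Without 1 library fewer of all tested genes were called higher, and no more members, while the wider count moved both ways. After stimulation, members called higher were 1 with only the groups compared and 0 to 1 without 1 library, those called lower were 2 with DESeq2, and wider genes called higher were 7 to 14 without 1 library. Wider genes called lower there were 0 with library size alone, 0 with only the groups compared and 0 to 1 without 1 library. In the difference of responses, DESeq2 called 1 member higher, and 8 wider genes higher and 1 lower. It called 192 of all tested genes higher and 294 lower, against 18 and 69 in the main fit. Library size alone called 1 wider gene higher, limma-voom 2 and the stricter filter 3. Over all tested genes these settings called 25, 17 and 27 higher. Some fits without 1 library also called a wider gene. The cause was not tested. Same-numbered libraries did not deviate together over all tested genes (r = -0.004 to 0.071). This does not show whether they share an origin, which the labels do not give. With the replicate block, 1 member was called higher in the difference of responses, and 1 wider gene was lower after stimulation. Over all tested genes the block gave 12 and 299 such calls, against 18 and 352 in the main fit. With 2 libraries a group, uncalled differences are not shown to be absent.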
